A study of Mus musculus with 4 samples.

Results

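The CD300 receptors and PIR-B were followed in bulk RNA-seq of alveolar macrophages (AMs), which live in the airspaces of the lung. The set comprised the 7 rows of the gene table named Cd300a, Cd300c2, Cd300e, Cd300lb, Cd300ld, Cd300lf and Pirb, of 54532 genes in all, and all 7 passed the filter on low counts. All AMs came from female wild-type mice, which by the methods of the study had a BALB/c background and were 8 to 10 weeks old. The control group held 2 libraries from mice that received no tumor cells, and the tumor group held 2 libraries from mice that carried a primary 4T1 tumor for 2 weeks. 4T1 is a mouse mammary carcinoma line, placed in the right mammary fat pad, that spreads spontaneously to the lung, so the comparison addressed AMs at a distance from the primary tumor. Neither group carried a deletion or a drug treatment. Whether a library stood for 1 mouse or a pool was not stated, so p-values measured only the spread between these libraries.

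CD300 proteins are small surface receptors of myeloid cells with a single immunoglobulin domain, and several of them bind lipids exposed on dying cells, such as phosphatidylserine. They form pairs of opposite sign. Inhibitory members carry immunoreceptor tyrosine-based inhibitory motifs (ITIMs) in a long cytoplasmic tail, and once phosphorylated by Src family kinases these tyrosines recruit the phosphatases SHP-1, SHP-2 and SHIP-1. Activating members have a short tail and a charged residue in the membrane span, through which they join the adaptors DAP12, DAP10 or the Fc receptor gamma chain and signal through the kinase SYK. PIR-B, encoded by Pirb, is the inhibitory member of the paired immunoglobulin-like receptors (PIRs) and binds MHC class I molecules. Its activating counterparts, the PIR-A proteins, use the Fc receptor gamma chain.

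This division was visible in the coding sequences of the 7 genes. In the longest GENCODE M21 coding sequence, Cd300lf coded for 337 residues with 2 ITIM-like motifs after the membrane span, Cd300a for 318 residues with 2 and Pirb for 841 residues with 3. Cd300lb (255 residues), Cd300c2 (228 residues), Cd300ld (221 residues) and Cd300e (196 residues) had no such motif and 1 charged residue in the predicted span, which the other 3 genes lacked. A motif was counted where isoleucine, leucine, valine or serine stood 2 residues before a tyrosine and isoleucine, leucine or valine stood 3 residues after it. The 7 stretches of 18 coding bases are shown because they separate the inhibitory from the activating members. The capitals mark the tyrosine codon, numbered from the start codon, in the GENCODE M21 transcripts of build GRCm38.
Cd300lf codon 241: ctctgtTATgcagacctg
Cd300lf codon 289: gtttcaTATgccgctctg
Pirb codon 713: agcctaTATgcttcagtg
Pirb codon 794: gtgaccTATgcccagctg
Pirb codon 824: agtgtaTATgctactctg
Cd300a codon 262: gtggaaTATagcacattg
Cd300a codon 274: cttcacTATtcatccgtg

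Of the 7 receptor genes, 5 were higher in AMs of tumor-bearing mice, 1 was lower and 1 did not pass the test. All 3 inhibitory genes rose, Cd300lf by 1.57-fold, Pirb by 1.55-fold and Cd300a by 1.42-fold. The activating genes split. Cd300lb rose by 2.56-fold and Cd300ld by 2.18-fold, Cd300c2 was 1.23-fold lower, and Cd300e, at under 5 CPM (counts scaled to a common library total), gave no call. Calls were made with edgeR's quasi-likelihood test at a Benjamini-Hochberg adjusted p under 0.05 over the 14256 genes tested. At this threshold 53.8% of all tested genes were called, 29.0% as higher and 24.8% as lower, so a call alone did not set a receptor gene apart from the transcriptome. A call with a log2 fold change of at least 1, held by Cd300lb and Cd300ld, was made for 12.9% of tested genes in the higher direction. Over the 7 genes the log2 fold change had a median of 0.63, against 0.02 over all genes tested. The CPM of the 2 groups did not overlap for 6 of the 7 genes, which was also the case for 75.1% of all tested genes. In bulk samples, fewer cells of a type and less RNA per cell cannot be told apart.

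**Figure D1:**
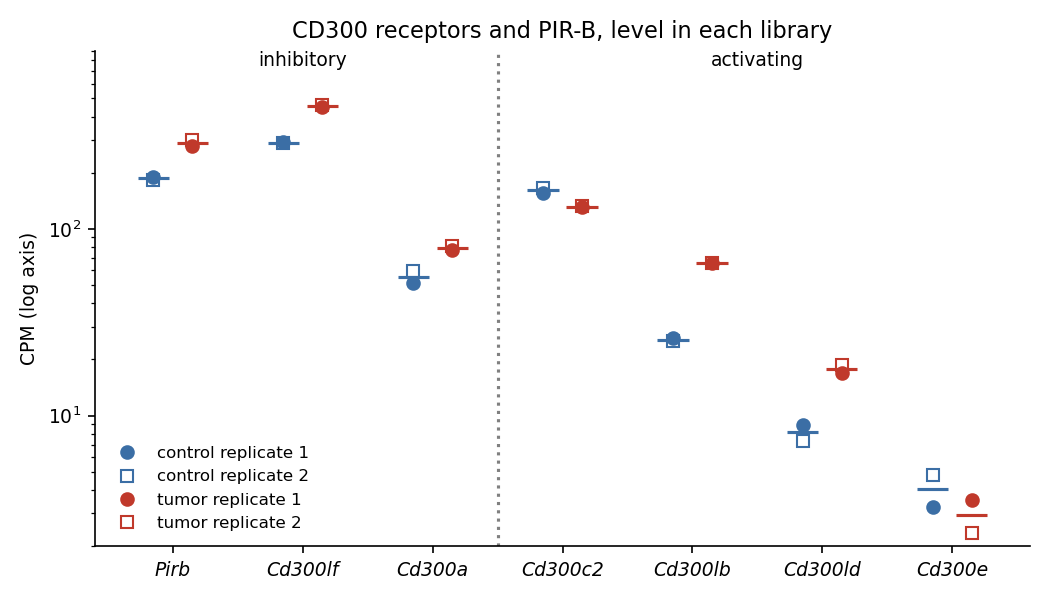
Level of each receptor gene in each library, in CPM after TMM scaling on a log axis, with inhibitory genes on the left and activating genes on the right. Points are libraries and short lines are group means (n = 2), and the groups are separate for every gene except Cd300e, with Cd300c2 the separate gene whose tumor libraries lie below the controls, and the groups were also separate for 75.1% of all tested genes.

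Cd300lf, also known as CLM-1, is an inhibitory receptor for phosphatidylserine and ceramide and the entry receptor of murine norovirus. It is coded on chromosome 11 from 115116214 to 115133992 on the minus strand (GRCm38). Its counts were 5483 and 4533 in the controls and 7832 and 9016 with a tumor. It had the highest CPM of the 7 genes in every library, and both tumor libraries lay above both controls. The means were 290 ± 3.74 CPM in controls and 456 ± 5.11 CPM in tumor AMs (SD, n = 2 each), with a log2 fold change of 0.65 ± 0.03 (SE, edgeR adjusted p = 8.23e-18). The difference was larger than the spread between replicates.

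Pirb lies on chromosome 7 from 3711409 to 3720391 on the minus strand. Its counts were 3576 and 2870 in the controls and 4790 and 5885 in the tumor libraries, without overlap of the groups. Levels were 186 ± 6.31 CPM in controls and 288 ± 16.5 CPM in tumor AMs (SD, n = 2 each), a log2 fold change of 0.63 ± 0.04 (SE, edgeR adjusted p = 1.60e-14). This rise was nearly the same size as that of Cd300lf. Pirb is the member whose reads are least its own. Of the 3775 stretches of 50 bases in its transcript, 37.3% also occurred in transcripts of other genes, 21.7% in Gm14548 and 20.7% in Pira2, so its count can hold reads of its neighbours or lose reads to them.

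Cd300a, or CLM-8, dampens mast cell and macrophage activation on contact with phosphatidylserine and phosphatidylethanolamine. It lies on chromosome 11 from 114890041 to 114904654 on the plus strand, alone among the 6 CD300 genes of the set. Its counts were 966 and 940 in controls and 1334 and 1586 in tumor libraries. It was the inhibitory gene with the lowest level and the smallest rise, from 55.5 ± 5.67 to 78.9 ± 2.68 CPM (SD, n = 2 each), and its groups did not overlap. The log2 fold change was 0.51 ± 0.06 (SE, edgeR adjusted p = 5.79e-08).

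Cd300lb, or CLM-7, is an activating receptor that couples to DAP12 and takes part in the uptake of apoptotic cells. It lies on chromosome 11 from 114922781 to 114934386 on the minus strand. It gave 489 and 395 counts in the controls and 1133 and 1284 in the tumor libraries. After scaling, the tumor libraries were almost equal at 65.43 and 65.44 CPM, and the controls at 26.09 and 25.03 CPM, so this was the largest change of the set on the log2 scale, with tight replicates. The log2 fold change was 1.35 ± 0.07 (SE, edgeR adjusted p = 1.08e-15).

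Cd300ld, or CLM-5, is an activating receptor that signals through the Fc receptor gamma chain. It lies on chromosome 11 from 114982274 to 114989922 on the minus strand. Its counts were low, 168 and 116 in controls and 293 and 365 in tumor libraries, and the groups did not overlap. Levels were 8.16 ± 1.14 CPM in controls and 17.8 ± 1.19 CPM in tumor AMs (SD, n = 2 each), and the log2 fold change was 1.12 ± 0.13 (SE, edgeR adjusted p = 3.26e-08). Its SE was larger than that of Cd300lb.

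Cd300c2, or CLM-4, is an activating receptor that uses the Fc receptor gamma chain and lies next to Cd300ld, from 114996721 to 115001880 on the minus strand. It was the only called member that fell. Its counts were 2928 and 2625 in controls and 2260 and 2588 in tumor libraries, or 156 and 166 CPM against 131 and 132 CPM, and both tumor libraries lay below both controls. The log2 fold change was -0.30 ± 0.04 (SE, edgeR adjusted p = 3.44e-07). This direction depended on the scaling. In AM-marker scaling the geometric mean of the 12 AM marker genes was held level in place of the bulk of all genes. Cd300c2 then had a log2 fold change of 0.36 (edgeR adjusted p = 5.71e-10), with a median over all genes of 0.67. With TMM scaling the log2 fold changes of these markers ran from -0.16 for Siglecf to -2.13 for Fabp4, so this value depends on the markers taken. A change of scaling moves every gene and the median by nearly the same amount. The distance of Cd300c2 from the median, -0.31 under either scaling, was therefore fixed in advance and is no check of its direction.

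Cd300e, or CLM-2, is a DAP12-coupled receptor of monocytes and lies from 115051917 to 115062177 on the minus strand. Its counts were 61 and 76 in controls and 61 and 46 in tumor libraries. The groups overlapped in CPM, at 3.25 and 4.82 against 3.52 and 2.34, and the log2 fold change of -0.46 ± 0.25 (SE) did not pass the test (edgeR adjusted p = 0.130). The value turned on single libraries. Without control replicate 1 it was -0.73 (edgeR adjusted p = 0.0328) and without tumor replicate 1 it was -0.77 (edgeR adjusted p = 0.0142), and under AM-marker scaling it was 0.20 (edgeR adjusted p = 0.465).

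**Figure D2:**
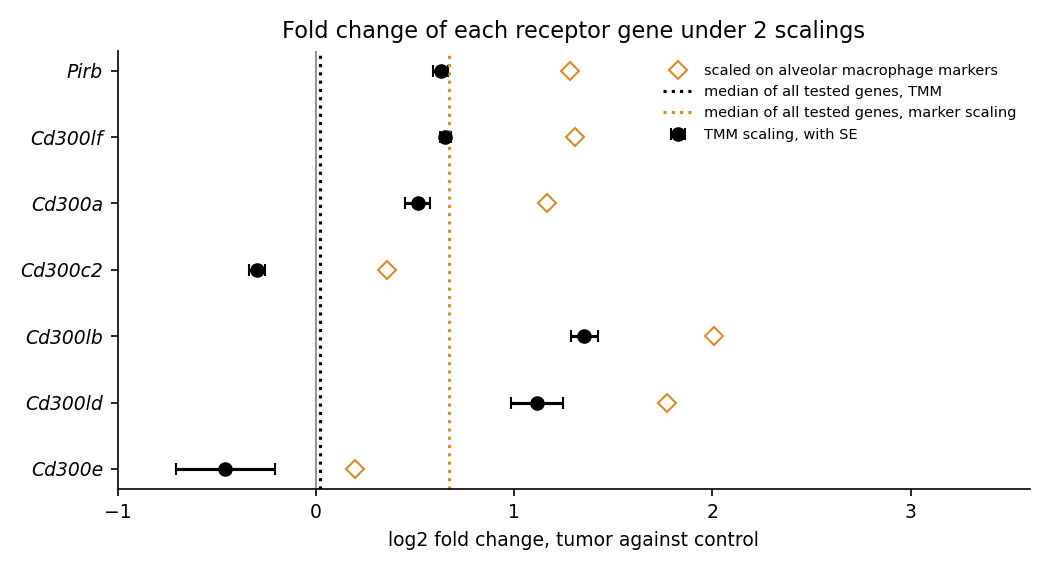
Log2 fold change of each receptor gene, tumor against control, with TMM scaling (filled, bars are SE of the edgeR fit over 2 libraries per group) and with scaling on the AM marker genes (open). Dotted lines are the medians of all tested genes, 0.02 and 0.67, and Cd300c2 and Cd300e lie to the left of the median while the other 5 genes lie to the right of it. A change of scaling moves all genes and the median by nearly the same amount, so these sides cannot differ between the scalings.

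The other 5 genes were higher under both scalings, since marker scaling raised their log2 fold changes to between 1.17 for Cd300a and 2.01 for Cd300lb. Under that scaling 78.4% of all tested genes were called as higher. Ratios of counts within a library need no scaling. Cd300lb had 0.167 and 0.150 counts for each Cd300c2 count in the controls and 0.501 and 0.496 in the tumor libraries. Cd300a and Cd300c2, an inhibitory and an activating gene whose products share 60.1% of aligned residues, gave ratios of 0.330 and 0.358 in controls and 0.590 and 0.613 in tumor libraries. For Cd300lf over Cd300c2 the ratios were 1.87 and 1.73 in controls and 3.47 and 3.48 in tumor libraries. Each ratio was higher in both tumor libraries than in both controls. This follows from the TMM-scaled levels, where Cd300c2 fell and the other genes of these ratios rose without overlap, so it is no separate support. The other close pair, Cd300ld and Cd300lf (59.4% identity), moved less apart, with 0.0306 and 0.0256 counts of Cd300ld per count of Cd300lf in controls and 0.0374 and 0.0405 in tumor libraries.

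Levels between genes were compared per kilobase of gene length, in CPM per kb. In controls the order was Cd300c2 (126 ± 5.61), Cd300lf (56.3 ± 0.73), Pirb (41.7 ± 1.41), Cd300a (11.7 ± 1.20), Cd300lb (8.76 ± 0.26), Cd300ld (3.08 ± 0.43) and Cd300e (1.93 ± 0.53) (SD, n = 2 each). No neighbours in this order had overlapping libraries. In tumor AMs the order held but for 1 exchange, since Cd300lb at 22.4 ± 0.0027 CPM per kb passed Cd300a at 16.7 ± 0.57 CPM per kb (SD, n = 2 each). Cd300c2 and Cd300lf stood at 103 ± 0.77 and 88.5 ± 0.99 CPM per kb (SD, n = 2 each), closer than in controls, a direction that turned with the length used. With the coding length in place of the gene length, Cd300lf stood first and Cd300c2 second in both groups, and the other 5 ranks were as before in each group. Per coding kb the means of Cd300lf and Cd300c2 were 287 and 236 CPM in controls and 451 and 192 CPM in tumor AMs, further apart in the tumor group.

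Summed by role, the 3 inhibitory genes held 110 and 109 CPM per kb in the controls and 166 and 173 CPM per kb in the tumor libraries. The 4 activating genes held 136 and 144 CPM per kb in controls and 133 and 134 CPM per kb in tumor libraries. The ratio of inhibitory to activating transcript over these 7 genes was 0.809 and 0.757 in controls and 1.25 and 1.29 in tumor libraries. It was 1.62-fold higher in the mean. Per coding length it was 1.49 and 1.42 in controls and 2.07 and 2.12 in tumor libraries, 1.44-fold higher in the mean. The rise thus held under both lengths, but the side of 1 on which the controls lay did not. For the 6 CD300 genes alone, the ratio per gene length was 0.496 and 0.474 in controls. It was 0.783 and 0.793 in tumor libraries, so it rose but stayed under 1. The activating sum leaves out the PIR-A genes Lilra6 and Pira2, which were also higher. A ratio with these genes included was not computed. Cd300c2 made up 89.8% and 90.5% of the activating sum per gene length in controls and 77.0% and 77.2% in tumor libraries. Within the activating sum, a fall of Cd300c2 stood beside rises of Cd300lb and Cd300ld.

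The 6 CD300 members lie in a cluster on chromosome 11 with 5 further CD300 genes, and the sixth further gene of the family in the table, Cd300lg, lies outside the cluster. The 6 members held between 98.7% and 99.2% of all CD300 counts in every library. Of the 6 other CD300 genes, 4 were tested, and edgeR called 0 of them, with 0 at an unadjusted p under 0.05. DESeq2 and limma-voom also called 0, scaling on AM markers called 2, and leaving out control replicate 1 called 1. Cd300lg, an endothelial family member, had 65 and 43 counts in controls and 56 and 72 in tumor libraries. Cd300ld3 had 31, 6, 35 and 18 counts in control 1, control 2, tumor 1 and tumor 2, Cd300ld4 had 21, 12, 14 and 11, and Cd300c had 14, 14, 10 and 12. Their edgeR adjusted p-values lay between 0.413 and 0.617, and the highest group mean among them was 3.45 CPM, for Cd300lg in tumor AMs. Cd300ld5, with 2 to 11 counts, and Cd300ld2, with 1 count in a single library, were below the filter.

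**Figure D3:**
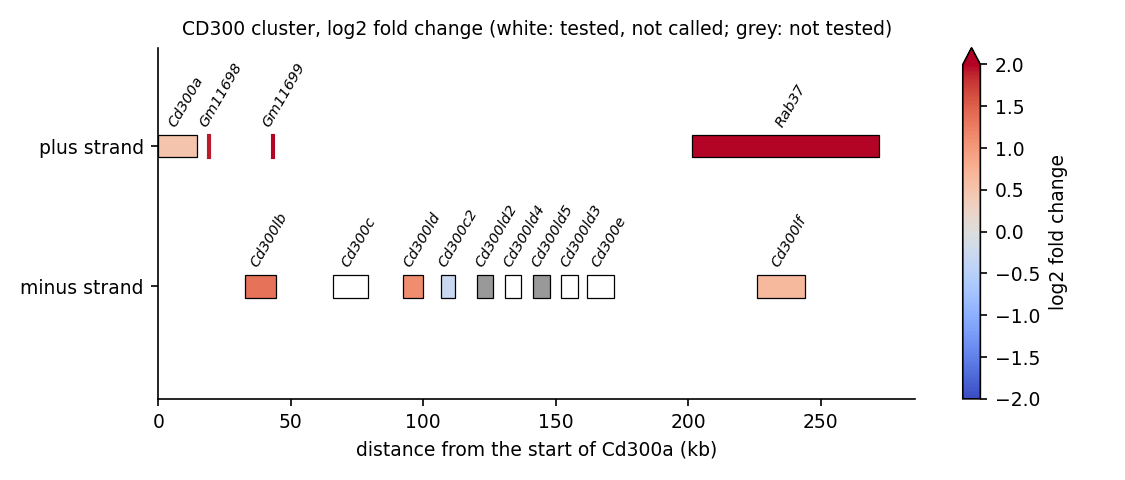
Map of the CD300 cluster by strand, with distance from the start of Cd300a in kb on the x axis and colour giving the edgeR log2 fold change, where white is tested and not called and grey is not tested. Colour ends at 2, so Rab37 and the pseudogene Gm11699 are drawn at the end of the scale, Gm11698, at the floor of 3 counts in both controls, is coloured by its bound of at least 3.76-fold higher, and Rab37 spans the whole of Cd300lf on the other strand.

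A pair of members shared their position with other rows. Rab37, which codes for a small GTPase of secretory granules, covers the whole of Cd300lf on the opposite strand, from 115091431 to 115162236. Rab37 had 10 and 16 counts in controls and 223 and 263 in tumor libraries, a log2 fold change of 4.11 ± 0.23 (SE, edgeR adjusted p = 8.74e-15). The processed pseudogene Gm11699 lies within Cd300lb on the opposite strand and had 4 and 3 counts in controls and 36 and 40 in tumor libraries (log2 fold change 3.30 ± 0.50, edgeR adjusted p = 2.30e-06). Both rows are small beside the member they overlap, but whether counting used the strand is not given in the sources used here, and reads of the overlaps cannot be told apart without it. Stretches of 50 bases shared with other genes made up 8.0% of the Cd300c2 transcript, 6.75% of Cd300lf, 3.89% of Cd300ld, 3.59% of Cd300a and none of Cd300lb or Cd300e.

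From Pirb to Lilra6 on chromosome 7 the table held 9 rows, both included, of which 8 were higher and 1 was not called, where 29.0% of all tested genes were higher. These rows were chosen after their values were seen and the count supports nothing on its own. Lilra6, a PIR-A gene, had 1077 and 934 counts in controls and 1477 and 1909 in tumor libraries, a log2 fold change of 0.65 ± 0.06 (SE, edgeR adjusted p = 2.32e-10). Pira2 had 291 and 247 counts in controls and 462 and 623 in tumor libraries (log2 fold change 0.91 ± 0.10, edgeR adjusted p = 1.42e-08). The predicted gene Gm14548 rose from 192 and 229 counts to 603 and 725, a log2 fold change of 1.55 ± 0.11 (SE, edgeR adjusted p = 2.08e-12). The inhibitory and the activating PIR genes thus had higher counts together, but with the shared stretches given above their counts are not independent of each other.

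Of the 13 symbols listed for the wider PIR and LILR family, 5 were found in the table and 8 PIR-A symbols were not matched. Of the 5, 3 were higher, 1 was lower and 1 was not called, beside 29.0% higher and 24.8% lower over all tested genes. Besides Lilra6 and Pira2, Lilr4b was higher, at 1314 ± 26.2 CPM in controls and 2007 ± 41.3 CPM in tumor AMs (SD, n = 2 each). Its neighbour Lilrb4a, which has 2 ITIM-like motifs where Lilr4b has none, was at 924 ± 19.5 and 900 ± 11.5 CPM (SD, n = 2 each) and was not called with TMM scaling (edgeR adjusted p = 0.128) but was called at 0.61 with AM-marker scaling. Lilra5, an activating receptor, fell by 0.42 on the log2 scale with TMM scaling and stood at 0.24 with AM-marker scaling.

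The adaptors and kinases of the activating receptors were all tested, and 5 of 7 were higher, none lower and 2 not called, with a median log2 fold change of 0.11. The shares over all tested genes were 29.0% higher and 24.8% lower. Tyrobp, which encodes DAP12, had 6113 and 5437 counts in controls and 5762 and 6752 in tumor libraries, a log2 fold change of 0.01 ± 0.03 (SE, edgeR adjusted p = 0.715) with TMM scaling and 0.67 (edgeR adjusted p = 9.26e-21) with AM-marker scaling. Fcer1g, which encodes the Fc receptor gamma chain, had a log2 fold change of 0.29 ± 0.04 (SE, edgeR adjusted p = 2.73e-06). The larger rises were in adaptors of low level. Hcst, which encodes DAP10, had 88 and 100 counts in controls and 181 and 233 in tumor libraries (log2 fold change 1.03 ± 0.16, edgeR adjusted p = 5.03e-06). Lat2, a membrane adaptor downstream of SYK, had 29 and 24 counts in controls and 84 and 98 in tumor libraries (log2 fold change 1.68 ± 0.25, edgeR adjusted p = 1.43e-06). Syk and Card9 were called with log2 fold changes of 0.07 and 0.11, and Plcg2 was at -0.01 and not called (0.64 and called with AM-marker scaling).

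Among the kinases and phosphatases on which ITIMs depend, 4 of 7 were higher, 2 lower and 1 not called, with a median log2 fold change of 0.07. The shares over all tested genes were 29.0% higher and 24.8% lower. The phosphatase that showed the largest rise was SHIP-1 (Inpp5d), from 224 ± 0.32 to 289 ± 4.46 CPM (SD, n = 2 each), a log2 fold change of 0.37 ± 0.03 (SE, edgeR adjusted p = 4.05e-11). SHP-1 (Ptpn6) was called at 0.07, and SHP-2 (Ptpn11) fell from 132 ± 0.86 to 102 ± 9.24 CPM (SD, n = 2 each), a log2 fold change of -0.38 ± 0.05 (SE, edgeR adjusted p = 1.50e-07) that turned to 0.27 with AM-marker scaling. Of the Src family kinases, Fgr was called at -0.11 (0.54 with AM-marker scaling) and Lyn at -0.01 was not called (0.65 and called with AM-marker scaling). Csk, which restrains Src family kinases, rose by 0.34 on the log2 scale. No gene of this list reached a log2 fold change of 1 in size.

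Of 9 genes coding for PIR-B ligands or for partners of CD300 receptors, 8 were tested, with 4 higher, 3 lower and 1 not called. The shares over all tested genes were 29.0% higher and 24.8% lower. The MHC class I genes H2-K1, H2-D1 and B2m had log2 fold changes of 0.10, 0.08 and 0.09. Il4ra, whose product associates with the Cd300lf receptor, rose by 0.66, from 138 ± 1.69 to 217 ± 5.37 CPM (SD, n = 2 each). Cd14 and Tlr4, partners of the Cd300lb receptor in the response to lipopolysaccharide, fell by 0.30 and 0.28 with TMM scaling and stood at 0.36 and 0.38 with AM-marker scaling, while Cd300lb was higher under both. The ligand genes Rtn4 and Timd4 stood at -0.08 (called, and 0.57 with AM-marker scaling) and 0.09 (not called).

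Inhibitory receptors outside the family varied more. Of 15 listed, 8 were higher, 4 lower and 3 not called, with a median of 0.36. Over all tested genes 29.0% were higher and 24.8% lower. Those at or above a log2 fold change of 1 were Siglecg (4.91), Pecam1 (3.13), Clec12a (2.53), Fcgr2b (2.03), which encodes the inhibitory Fc gamma receptor, and Ceacam1 (1.53), each with edgeR adjusted p below that of Cd300a. Sirpa, the inhibitory receptor for CD47 and the most abundant of the list in CPM, fell by 0.39 with TMM scaling and stood at 0.27 with AM-marker scaling. Of 14 tested receptors that use DAP12 or the Fc receptor gamma chain, 5 were higher, 6 lower and 3 not called, with a median of -0.08. Trem3 and Pilrb1 each rose by 1.18, and Clec4n, which encodes Dectin-2, and Clec4e, which encodes Mincle, fell by 1.25 and 1.04. Cd200r3 rose from 0 and 5 counts to 133 and 95 (log2 fold change 5.36 ± 0.47, edgeR adjusted p = 1.11e-10). Unless stated, list values are TMM-scaled. Of the 16 genes of these lists that were lower, AM-marker scaling called 12 as higher, left 3 lower (Clec4n, Clec4e and Clec5a) and called 1 in neither direction. All 29 higher genes were higher under both, and of the 15 not called, 12 were called higher and 3 were not called under either. AM-marker scaling moved all genes up by nearly the same amount and called 78.4% of all tested genes as higher. Genes already higher therefore had to stay higher.

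**Figure D4:**
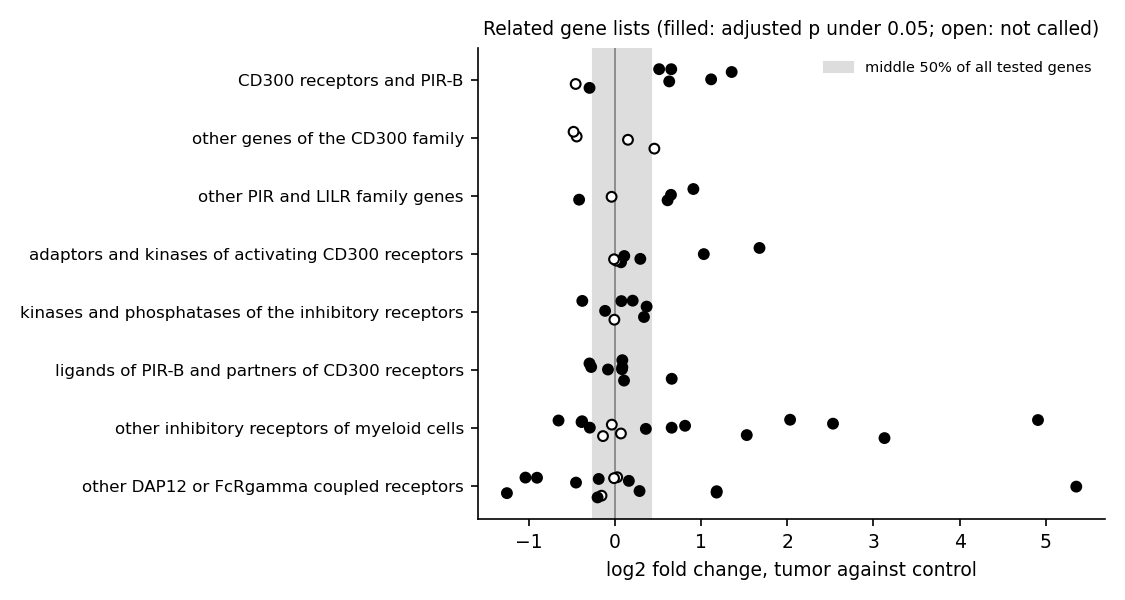
Log2 fold change, tumor against control, of each tested gene in the set and in 7 related lists, with called genes filled, genes not called open, and the middle 50% of all tested genes (-0.26 to 0.42) shaded. The 5 higher members lie to the right of the shaded band, the lists of adaptors, kinases, phosphatases and ligands lie mostly within it, and the other inhibitory receptors reach 4.91.

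The labelled cell type was checked against marker lists. All 12 AM markers were present in every library, Siglecf, Itgax, Mrc1 and Chil3 among them, and all 12 were lower in the tumor libraries, where their sum was 10364 to 10538 CPM against 14601 to 14711 CPM in controls. Markers of other cells moved with the groups. All 10 neutrophil markers were higher, with sums of 119 and 120 CPM in controls against 4480 to 4498 CPM in tumor libraries, and both Ngp and Camp at or under the floor of 3 counts in the controls. All 5 eosinophil markers were higher, with sums of 0.634 to 0.640 CPM against 2629 to 2669 CPM and Prg2, Epx and Ear6 at the floor in both controls, and Siglecf of the AM list is also an eosinophil gene.

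All 6 basophil and mast cell markers were higher, with sums of 0.747 to 0.950 CPM against 95.4 to 103 CPM, and Mcpt8, Ms4a2 and Fcer1a at 0 in both controls. All 5 hepatocyte markers were higher, at 0.0533 to 0.190 CPM against 590 to 591 CPM, with Alb at 0 in both controls. Of 10 monocyte and interstitial macrophage markers, 3 were higher and 6 lower, with sums of 943 to 958 against 697 CPM in each tumor library. Dendritic cell markers summed to 13.1 to 13.3 against 37.0 to 38.7 CPM (3 of 7 higher, 1 lower), B cell markers to 6.21 to 6.30 against 12.2 to 13.2 CPM (4 of 5 higher) and endothelial markers to 2.34 to 3.47 against 3.77 to 4.91 CPM (1 of 3 tested higher). Neutrophils, eosinophils, basophils and mast cells are known to carry receptors of these families themselves. The study isolated AMs for both staining and RNA-seq, and describes the stained cells as CD45+ CD11b- CD11c+ SiglecF+, while the RNA-seq methods say only that AMs were purified. Whether the sequenced cells passed the same gate is not stated in those methods. The part of neutrophils, eosinophils, basophils, mast cells and other cells in the 5 rises and in the fall of Cd300c2 was not tested.

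**Figure D5:**
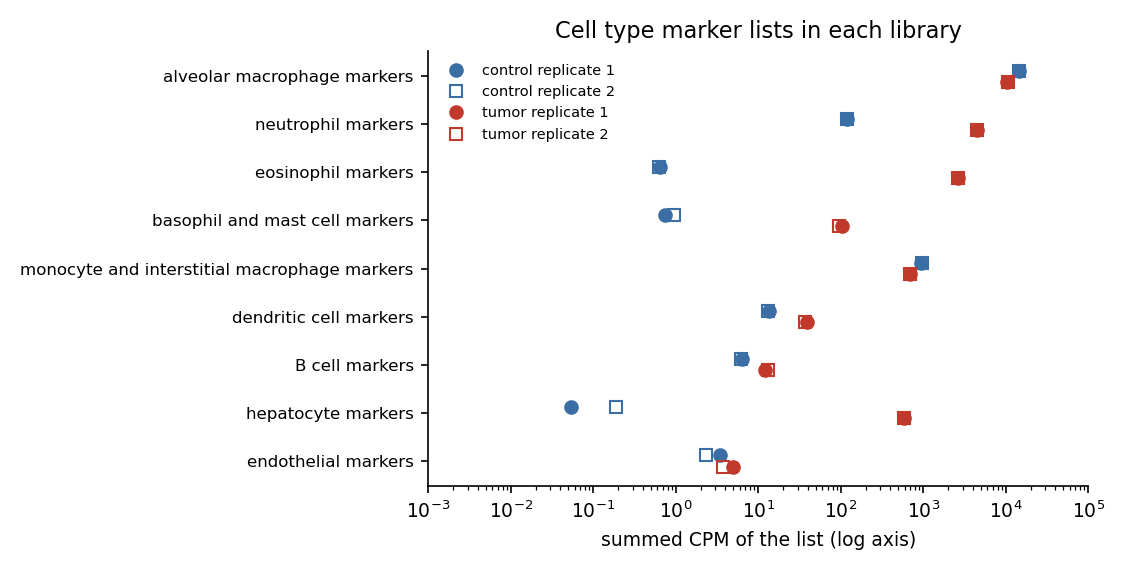
Summed CPM of each marker list in each library, on a log axis, with controls in blue and tumor libraries in red. AM markers lie lower in the tumor libraries (10364 to 10538 against 14601 to 14711 CPM), and neutrophil, eosinophil, basophil and mast cell, and hepatocyte markers lie far to the right of the controls.

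For the members with a log2 fold change of at least 1, the genes most alike over the 4 libraries were found by the root mean square difference of centred log2 CPM, among 11173 genes. Closest to Cd300lb were Rac2, a small GTPase of blood cells (difference 0.0203), the chaperone gene Dnaja1 (0.0212) and Sycp2 (0.0232). Rac2 had 3021 and 2493 counts in controls and 6891 and 8060 in tumor libraries. Closest to Cd300ld were Zc3h12d (0.0253), the calpain gene Capn10 (0.0260) and Ighm, the immunoglobulin mu chain gene (0.0385). With 4 libraries in 2 groups, this likeness is mainly a like fold change, and it describes these libraries only.

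The 250 bases before the RefSeq start of each gene were read from build GRCm38.p6, and all 7 members had an entry. The reference is the C57BL/6J genome, and the mice were BALB/c. Short letter strings of 4 factor types were searched on both strands. GAGGAA, a PU.1-type core, was found in Cd300lf, Pirb (3 matches), Cd300a, Cd300ld and Cd300c2, against 23.3% of 32851 promoters. TTGCNNAA, a C/EBP-type core, was found in Cd300a (9.56% of promoters), TTCNNNGAA, a STAT5-type core, in Cd300e (7.02%), and GCGTG, the core bound by the aryl hydrocarbon receptor with its partner, in Cd300lb (28.2%), 35 bases before the start. The strings do not overlap each other in these windows. The sequences of Cd300lb and Cd300ld, which rose most, and of Cd300c2, which fell, are shown 5′ to 3′ on the strand of the gene, all minus, with the matches in capitals (CACGC and TTCCTC are the opposite strand of GCGTG and GAGGAA). They are chr11:114934372-114934621 for Cd300lb, chr11:114989887-114990136 for Cd300ld and chr11:115001881-115002130 for Cd300c2.
Cd300lb: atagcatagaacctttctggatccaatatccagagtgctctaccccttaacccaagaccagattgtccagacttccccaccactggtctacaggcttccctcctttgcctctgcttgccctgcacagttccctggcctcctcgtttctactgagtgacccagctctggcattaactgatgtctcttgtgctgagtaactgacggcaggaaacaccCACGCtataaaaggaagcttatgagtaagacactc
Cd300ld: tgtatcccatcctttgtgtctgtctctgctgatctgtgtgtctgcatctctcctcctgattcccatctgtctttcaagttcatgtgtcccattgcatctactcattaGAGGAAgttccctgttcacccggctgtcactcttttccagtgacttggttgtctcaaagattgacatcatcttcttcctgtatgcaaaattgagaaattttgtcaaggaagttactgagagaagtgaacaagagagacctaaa
Cd300c2: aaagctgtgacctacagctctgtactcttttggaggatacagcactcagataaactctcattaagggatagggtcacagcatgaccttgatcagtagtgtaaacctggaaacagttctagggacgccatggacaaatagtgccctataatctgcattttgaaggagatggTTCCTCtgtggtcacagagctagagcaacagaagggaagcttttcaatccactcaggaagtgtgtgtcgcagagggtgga

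The GAGGAA string was present both in 4 genes that rose and in Cd300c2, which fell, and absent from the window of Cd300lb, which rose most. A match of letters is a description of the window and not evidence of binding.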

How the data were processed

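Bulk RNA-seq libraries of AMs (2 control, 2 tumor) were assigned to groups from their titles. Per the labels and the methods, RNA was extracted with TRIzol, the NEBNext Ultra RNA kit was used for libraries, which were sequenced paired-end on a HiSeq instrument, aligned with HISAT2 2.0.5 and counted with featureCounts, and DESeq2 is also named. The deposited values are raw counts per gene from the authors, without normalization. Totals ranged from 16167147 to 19205737, and intervals of depth cover counting error only. Genome build, annotation and strand setting are not given in the sources used here. Coordinates matched GENCODE M21 (GRCm38) for all members. No per-sample column was left unused.

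Counts were tested with edgeR 4.0.16 in R 4.3.3 (filterByExpr at 10 counts, TMM, glmQLFit, group as single term, 2 residual degrees of freedom, Benjamini-Hochberg over 14256 genes, threshold 0.05). The SE was the log2 fold change over the root of F. The script was tested on simulated data. CPM used TMM-scaled library sizes. The floor was 3 counts. Alternatives were DESeq2 size factors, total counts and AM markers for scaling, no filter or 10 counts in every library, DESeq2 1.42.0 and limma-voom (limma 3.58.1) as tests, the replicate number as a block, stricter thresholds, coding length, and each library left out. Sequences came from GENCODE and RefSeq. The members and lists were chosen with earlier results of these data known. Named were all members, genes overlapping them, all tested genes of the other CD300, adaptor and phosphatase lists, genes of the other lists called with a log2 fold change of at least 1, and the 3 genes most like each member changed by at least 1. Il4ra, Sirpa, Clec5a, Lilr4b, Lilrb4a, Lilra5, the PIR neighbours and the ligand genes with smaller changes were named after their values were seen. The values of 1 kinase gene counted in the phosphatase list are not reported here.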

Additional observations from a re-analysis of the deposited data

How the results depend on the processing

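Of the 7 members, 6 were called as reported, where 53.8% of all tested genes were called. Every alternative fit of all 4 libraries also called 6, with 5 of them higher in each fit apart from AM-marker scaling. Under AM-marker scaling 6 were higher and none lower, where 78.4% of all tested genes were called as higher. AM-marker scaling turned Cd300c2 to 0.36 and Cd300e to 0.196. With a log2 fold change of at least 1 required, 2 members and 12 genes of the other lists remained called, against 6 and 45. At that size 12.9% of all tested genes were called in the higher direction. With each library left out in turn, every member kept the direction of its log2 fold change. Cd300e ranged from -0.77 to -0.18 and was called without control replicate 1 (-0.73) and without tumor replicate 1 (-0.77). With 1 library left in a group, that library was assumed to vary like the pair of the other group. Replicate numbers did not pair the libraries (correlation of same-numbered deviations -0.00278). With the replicate number as a block, 7446 genes were called against 7671, 6 members were called and Cd300lb stood at 1.36, so the replicate block changed no call of a member. The order of levels per length was the same for 5 of 7 members with coding length, and the ratio of inhibitory to activating sums, an alternative chosen after seeing the data, moved from 0.783 to 1.45 in controls and from 1.27 to 2.10 in tumor libraries. Limits are the 2 libraries per group, the low counts of Cd300e, reads shared by Pirb and PIR-A genes, and markers of other leukocytes and hepatocytes that differ between the groups.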
